A study of Danio rerio with 5 samples.

Results

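The genes described here are the zebrafish Wnt pathway genes measured in sorted skin cells of embryos and of the adult fin. They were chosen by name alone, from the symbol column of the deposited count table, and 76 of its 30849 gene symbols matched. They comprise 25 Wnt ligands, 3 genes of ligand secretion, 14 Frizzled receptors, 2 Lrp co-receptors, 2 Ror receptors, 14 secreted antagonists, 4 R-spondins, 5 Dishevelled genes, 2 Axin genes and 5 TCF/LEF transcription factors. The name rule used no measured value, but it was chosen with earlier results of these data known. For a symbol with several transcript rows, the row with the highest mean count stood for the gene.

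Wnt ligands are secreted lipid-bearing proteins. They need the acyltransferase Porcupine and the carrier Wntless, encoded by wls, to leave the cell, and they are received by Frizzled proteins at the surface of other cells. With the co-receptors Lrp5 and Lrp6, this halts the Axin-based complex that destroys beta-catenin, which then joins TCF/LEF factors on target genes. With Ror receptors and Frizzled proteins, other ligands such as Wnt5 and Wnt11 act on cell polarity and movement without beta-catenin. In fish, Wnt signalling is known to pattern the fin fold and to be needed for fin regeneration, and in mammalian skin it takes part in the maintenance of basal stem cells.

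RNA was sequenced from 5 libraries of fluorescence-sorted cells, from fish of an inbred wild-type line derived from the Tubingen strain. Embryonic periderm, the outer skin layer, was sorted at 1 dpf (day post fertilization) as krt4+ cells and gave 2 libraries. These fish carried krt4:creERt2 together with the switch reporter Olactb:loxP-dsRed2-loxP-egfp and the lens marker cryaa:egfp. Embryonic basal precursors, the layer below it, were sorted at 1 dpf as itgb4+ cells of Tg(itgb4:mcherry) fish and gave 2 libraries. Adult basal cells were sorted as itgb4+ cells of that genotype from the caudal fin and gave 1 library. The krt4 promoter drives the inducible Cre of the periderm line, and its reporter changes colour only after recombination. The sources used here do not give how recombination was induced, how many fish were pooled, how old the adults were or whether replicates came from separate clutches. The p-values therefore measure the spread between these libraries, which may be technical. The comparison of embryonic basal precursors with periderm bears on the question in the study's design, whether itgb4+ precursors already have a basal identity soon after the layers part. Age and body site both separate the adult library from the embryonic ones and cannot be told apart.

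With 1 row per gene, the libraries held between 3521994 and 7505594 gene counts, and the Wnt pathway genes took between 0.141% and 0.289% of them. Levels are given below as CPM, the counts scaled to a common library size with TMM factors. A gene with 3 counts, taken as the floor, had 0.338 to 0.567 CPM in an embryonic library and 1.38 CPM in the adult one, for counting error only. The basal marker itgb4 stood at 9.67 and 41.5 CPM in the periderm libraries and at 488 and 498 CPM in the embryonic basal libraries. In the adult library it was at 3915 CPM. The 8 basal genes, itgb4 among them, summed to 2685 and 1073 CPM in periderm and 3400 and 1871 CPM in embryonic basal cells. Their adult sum was 17160 CPM. The embryonic groups overlapped in this sum, and of the 8 genes only itgb4, the gene of the sort, was called between them. The periderm keratin krt4 was at 60630 and 31110 CPM in periderm but also at 23980 and 18240 CPM in the embryonic basal libraries. Its gene symbol has rows in several places. The 8 periderm genes, krt4 among them, summed to 82440 and 44460 CPM in periderm and 30470 and 22360 CPM in embryonic basal cells. Their adult sum was 1463 CPM, and 6 of the 8 were called lower in the embryonic basal libraries than in periderm. All embryonic libraries held muscle transcripts, with 10 muscle genes summing to between 14420 and 32540 CPM against 0.918 CPM in the adult library. Other markers moved with the groups. The 12 mesenchyme genes summed to 225 and 237 CPM in periderm, 1133 and 760 CPM in embryonic basal and 61.0 CPM in adult cells, where prrx1b, twist1b, pdgfra, tbx18 and hand2 were at 0. The 12 neural genes summed to 1838 and 1013 CPM in periderm, 288 and 432 CPM in embryonic basal and 176 CPM in adult cells. The 8 pigment cell genes summed to 1301 and 913 CPM in periderm, 52.1 and 142 CPM in embryonic basal and 8.72 CPM in adult cells, and the 8 blood and vessel genes to 500 and 601, 53.7 and 122, and 0.459 CPM. The 8 leukocyte genes summed to 139 and 217 CPM in periderm, 2.65 and 10.5 CPM in embryonic basal and 3235 CPM in adult cells, of which the antigen-presentation gene cd74a gave 3156 CPM. In bulk libraries such as these, fewer cells of a type and less RNA per cell cannot be told apart, and the part of these other cells in any result below was not tested.

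Of the 76 genes, 70 had a count in each periderm library, 63 and 67 in the embryonic basal libraries and 53 in the adult library, the shallowest. By TPM, the authors' values per row length, wls led in all 4 embryonic libraries, with 106 and 127 TPM in periderm and 417 and 341 TPM in basal cells. In the adult library wnt7aa led with 151 TPM, followed by fzd10 with 137 TPM and wls with 106 TPM. The antagonist gene sfrp2l and the R-spondin gene rspo4 had no count in any library. The rows of wnt8a and wnt8-2 held identical counts and are one shared transcript, so their reads cannot be assigned to either gene. The row of wnt2ba equalled that of zdhhc22 and was not read as wnt2ba expression. By accession, the table's wnt11r is the gene that RefSeq names wnt11, and the table's wnt11 is RefSeq's wnt11f2, the silberblick gene.

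**Figure D1:**
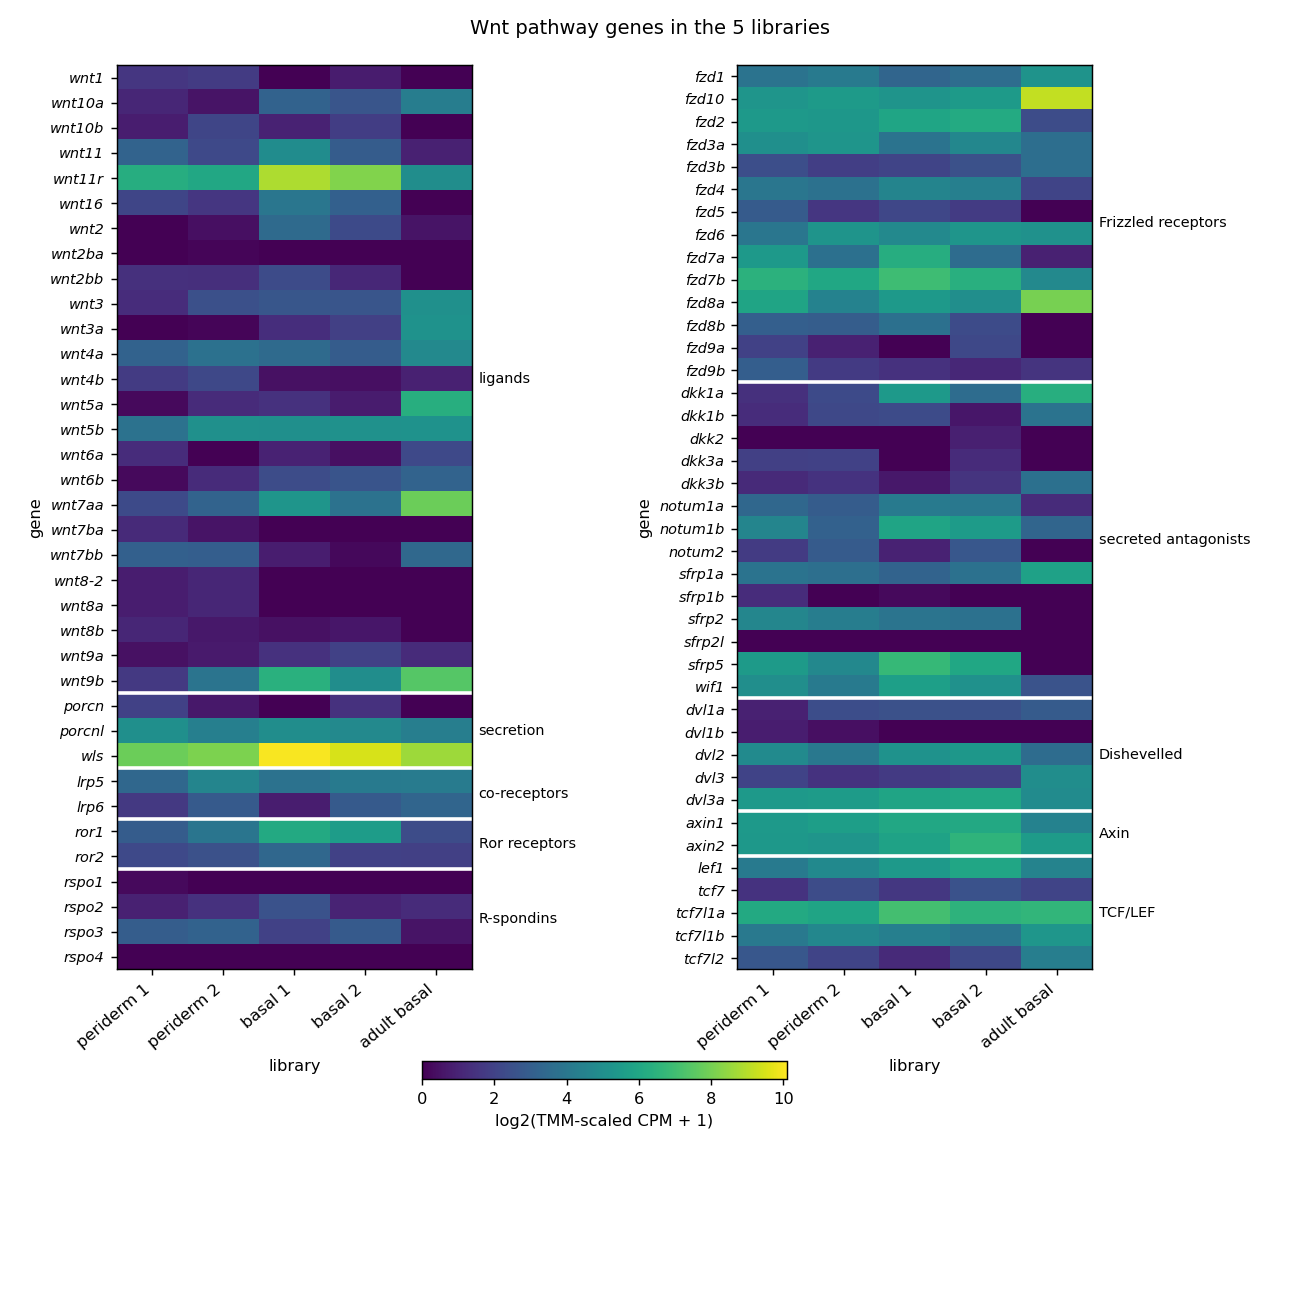
Level of each of the 76 genes (rows, grouped by role) in each of the 5 libraries (columns), as log2(CPM + 1). The wls row is bright in all 5 columns, fzd10 and fzd8a stand out in the adult column, and sfrp5 and sfrp2 are dark only there.

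In the first comparison, embryonic basal precursors against embryonic periderm, 3 Wnt pathway genes were higher in the basal libraries and none lower. They were the ligand gene wnt11r, the secretion gene wls and the receptor gene ror1. Of the 76 genes, 61 had counts enough to be tested, and the 3 make 4.92% of these. Over all 15589 genes tested, 3.50% were called at an adjusted p under 0.05, so the share called in either direction was near the background. By direction the shares differed, with 4.92% of tested Wnt genes called higher against 0.956% of all genes, and 0% lower against 2.54%. The higher share rests on 3 genes. The median log2 change of the 61 genes was 0.40, with 38 of them above 0, and that of all tested genes was -0.02. Without adjustment, 14 of the 61 were higher and 2 lower at p under 0.05 by edgeR's quasi-likelihood test, against 8.19% and 10.4% of all tested genes. After adjustment, DESeq2 called 8 of the 61 higher and 1 lower, against 3.57% and 5.38% of all genes. In both counts the share of Wnt genes that were higher lay above that of all genes, and the share that were lower lay below it. The set as a whole was not tested for this lean.

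The ligand gene wnt11r encodes a Wnt that acts mainly on cell movement and polarity. It stood at 77.2 and 66.4 CPM in the periderm libraries and at 458 and 294 CPM in the embryonic basal libraries. The groups did not overlap, and the fitted difference was 5.16-fold (log2 change 2.37, SE 0.38, adjusted p = 0.0246). The carrier gene wls, needed by nearly all Wnt ligands for secretion, was at 225 and 273 CPM in periderm and at 1031 and 711 CPM in embryonic basal cells. Both basal libraries lay above both periderm libraries, by 3.45-fold (log2 change 1.79, SE 0.37, adjusted p = 0.0492). Of the Porcupine genes, porcnl was at 31.9 and 19.4 CPM in periderm and 29.7 and 26.2 CPM in basal cells, with overlapping groups, and porcn was at 2.92 CPM or less in every library.

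Other ligand genes had large differences that did not pass the test. The gene wnt9b, known for its role in kidney development of the mouse, stood at 2.19 and 13.7 CPM in periderm and at 84.1 and 30.3 CPM in basal cells (log2 change 2.78, SE 0.83, adjusted p = 0.118). The gene wnt10a, a ligand of ectodermal organs, was at 1.09 and 0.451 CPM in periderm and 8.12 and 5.31 CPM in basal cells (log2 change 3.16, SE 0.80, adjusted p = 0.0779). The gene wnt7aa was at 3.83 and 8.35 CPM in periderm and at 37.0 and 12.9 CPM in basal cells (log2 change 1.98, adjusted p = 0.158). By DESeq2 the adjusted p was 0.00459 for wnt9b and 0.0313 for wnt10a, and without embryonic basal replicate 2 it was 0.00962 for wnt9b and 0.0267 for wnt7aa. In these 3 genes the groups did not overlap, an order that was not counted over all genes. The basal libraries, however, differed from each other by more than the periderm level itself. The gene wnt7bb had the opposite order, with 7.66 and 6.99 CPM in periderm and 0.756 and 0.171 CPM in basal cells (log2 change -3.98, SE 0.86, adjusted p = 0.0505), and was called lower with RLE scaling, total counts, DESeq2 and a fit of all 5 libraries. The gene wnt2 had the largest fitted change of the ligands, with 0 and 0.338 CPM in periderm and 10.2 and 3.77 CPM in basal cells (adjusted p = 0.0529). With 3 periderm counts in all, its ratio was 33.4, with a 95% Poisson interval of 11.4 to 162, and it was called higher with RLE scaling, total counts, DESeq2 and without embryonic basal replicate 2 (0.0215). The gene wnt4b was at 2.37 and 3.61 CPM in periderm and at 0.378 and 0.343 CPM in basal cells (log2 change -3.04, adjusted p = 0.116). By their counts, wnt2 and wnt10a passed the filter only through the basal libraries, and wnt7bb and wnt4b only through periderm. The p-values and calls of wnt2, wnt10a, wnt7bb and wnt4b therefore add nothing to their values.

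Among the receptors, ror1 was the only one called. It encodes a receptor tyrosine kinase-like protein that binds Wnt5-class ligands. Its level was 6.75 and 14.3 CPM in periderm and 68.4 and 47.3 CPM in embryonic basal cells, a difference of 5.32-fold without overlap (log2 change 2.41, SE 0.50, adjusted p = 0.0464). Its relative ror2 was at 3.65 and 4.74 CPM in periderm and 9.26 and 2.91 CPM in basal cells, with overlapping groups. None of the 14 Frizzled genes, all of them tested, was called, against 3.50% of all genes, and their median log2 change was 0.09. The gene fzd7b, the first of them by TPM in 3 of the 4 embryonic libraries, was at 88.7 and 64.6 CPM in periderm and 123 and 81.6 CPM in basal cells (log2 change 0.40, adjusted p = 0.698). The receptor gene fzd10 was nearly level, with 37.2 and 44.0 CPM in periderm and 36.3 and 44.2 CPM in basal cells. The co-receptor genes lrp5 and lrp6 overlapped between the groups as well.

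None of the 11 tested secreted antagonists was called between the embryonic groups, against 3.50% of all genes. Their median log2 change was -0.28, with 5 above 0 and 6 below. Among those below 0 were dkk3a at -1.96, which passed the filter only through periderm, sfrp2 at -0.70 and sfrp1a at -0.29. The largest value was that of dkk1a, an inhibitor that binds Lrp co-receptors, at 1.64 and 3.84 CPM in periderm and 42.9 and 10.8 CPM in basal cells (log2 change 3.21, SE 0.79, adjusted p = 0.0748). The gene notum1b, encoding an enzyme that strips the lipid from Wnt proteins, was at 23.0 and 7.78 CPM in periderm and 59.3 and 45.2 CPM in basal cells (log2 change 1.77, adjusted p = 0.131). The decoy receptor gene sfrp5 was at 44.0 and 25.0 CPM in periderm and 107 and 63.6 CPM in basal cells (log2 change 1.29, adjusted p = 0.162). By DESeq2 the adjusted p was 0.0011 for dkk1a and 0.0498 for notum1b, and by edgeR with total counts it was 0.0485 for dkk1a. The gene sfrp5 was called in none of 13 alternatives. Inside the cell, the feedback inhibitor gene axin2, a widely used target of beta-catenin, stood at 40.3 and 38.0 CPM in periderm and 56.1 and 94.9 CPM in basal cells (log2 change 0.93, adjusted p = 0.261). The transcription factor gene lef1 was at 17.2 and 26.8 CPM in periderm and 42.5 and 62.4 CPM in basal cells (log2 change 1.23, adjusted p = 0.169). The basal values of notum1b, sfrp5, axin2 and lef1 lay above their periderm values, but none of these 4 genes was called. How many of all genes had this order was not counted.

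**Figure D2:**
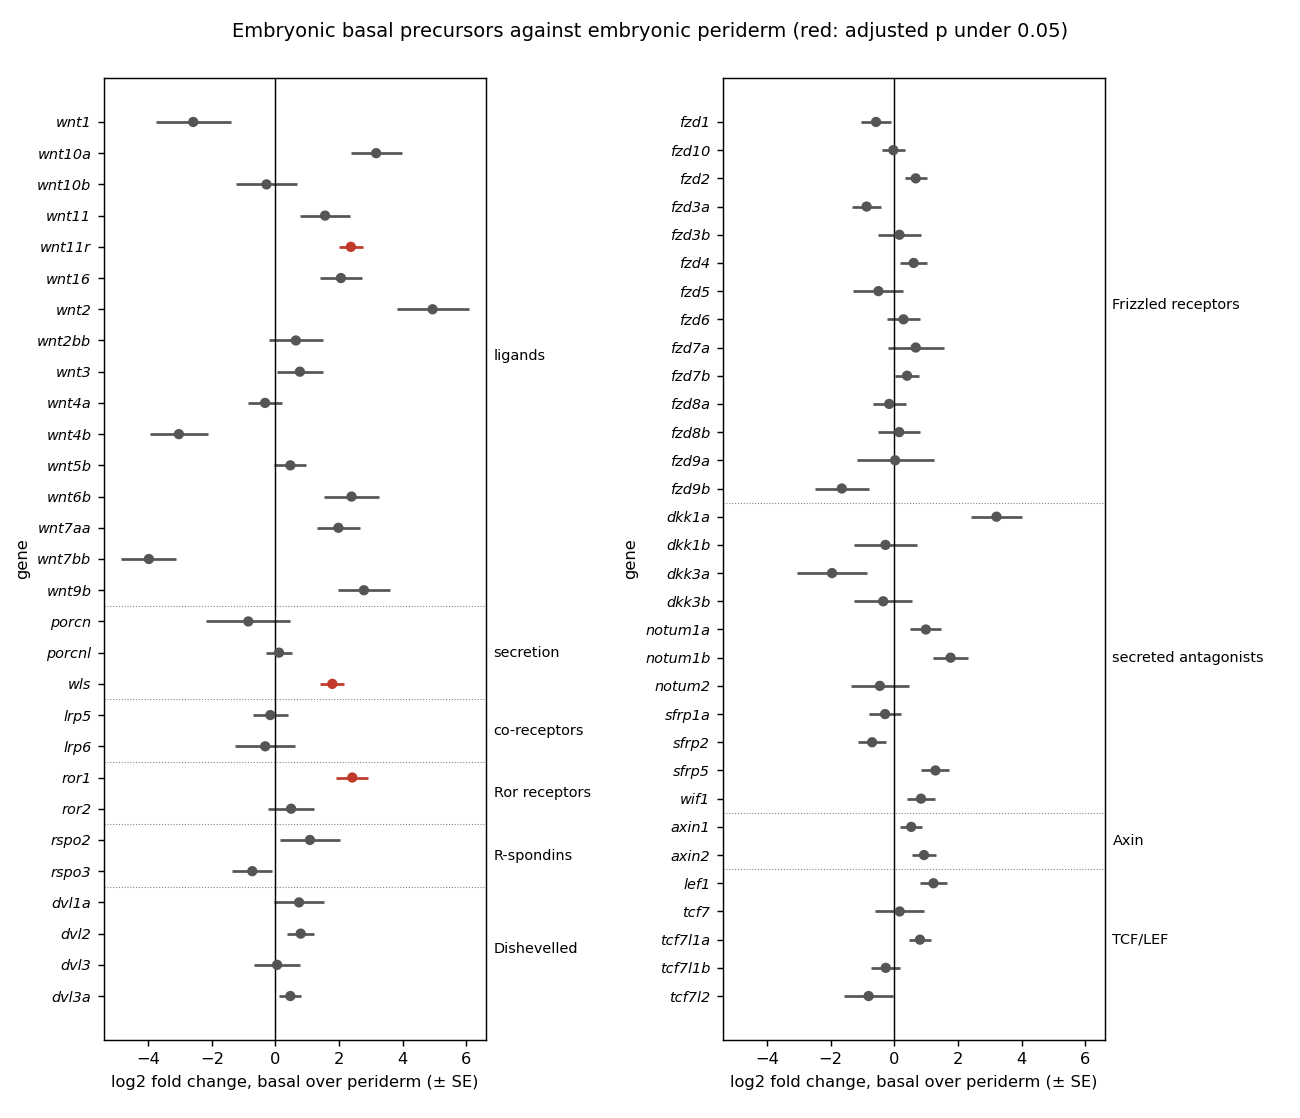
Fitted log2 fold change, embryonic basal over periderm, with its SE (bars), for the 61 tested genes in 2 panels grouped by role. The 3 red points, wnt11r, wls and ror1, passed the adjusted p threshold, and the Frizzled genes lie around 0.

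The 3 embryonic calls rest on few libraries. All 3 were lost when periderm replicate 1, periderm replicate 2 or embryonic basal replicate 1 was left out, and then wnt11r had adjusted p-values of 0.17, 0.0974 and 0.0781, wls 0.309, 0.145 and 0.21, and ror1 0.226, 0.0599 and 0.153. Without embryonic basal replicate 2, 7 members were called, and the adjusted p of dkk1a was 0.00254. Of the 11 tested mesenchyme genes, 9 had a log2 change above 0 and 2 below 0. Only col6a1, col6a2 and lum were called, all 3 higher in the embryonic basal libraries. Called lower in these libraries were 4 of 12 tested neural genes, 5 of 8 pigment cell genes, 4 of 7 leukocyte genes and 3 of 7 blood and vessel genes. The part of these cells in the Wnt gene differences was not tested.

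In the second comparison, adult fin basal cells against embryonic basal precursors, 22 of 65 tested Wnt pathway genes were called, 12 higher and 10 lower in the adult library. These are 33.8% of the tested members, against 23.1% of all 18147 genes tested (11.6% higher and 11.4% lower). The adult library held more wnt5a, wnt3a, wnt7aa, wnt7bb and wnt3, more fzd10, fzd8a and fzd1, and less wnt11r, ror1, fzd2, sfrp5 and wif1. The adult group is a single library, so the test assumes that it varies like the embryonic libraries. Of the 22 calls, 11 held in every alternative that tested them: wnt11r, wnt3a, wnt5a, wnt7aa, fzd10, fzd2, fzd8a, ror1, sfrp2, sfrp5 and dvl3. The filter of 5 CPM in 2 libraries dropped wnt3a, wnt5a and dvl3, which were tested in 10 of the 11 alternatives. In the embryonic comparison wnt3a and wnt5a had too few counts to be tested, and wnt5a passed the filter here only through the adult library. The call of wnt5a therefore adds nothing to its values.

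Of the 20 tested ligand genes, 5 were higher and 2 lower in the adult library, and 13 were not called. The called share was 35%, against 23.1% of all genes. The gene wnt5a, a ligand of the polarity branch known in regenerating fins, was at 1.70 and 0.685 CPM in embryonic basal cells and at 78.9 CPM in the adult library, 65.9-fold higher (log2 change 6.04, SE 0.79, adjusted p = 0.00238). The gene wnt3a, a ligand of the beta-catenin branch, was at 1.51 and 2.74 CPM in embryonic basal cells and at 34.9 CPM in the adult library, 16.1-fold higher (adjusted p = 0.00718). The adult value of each exceeded both embryonic basal values and both periderm values, an order that was not counted over all genes.

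The gene wnt7aa was at 37.0 and 12.9 CPM in embryonic basal cells and at 224 CPM in the adult library, 9.01-fold higher (adjusted p = 0.014). The gene wnt3, whose mammalian relative is needed for limb outgrowth, was at 5.48 and 5.31 CPM and then 33.0 CPM, 6.11-fold higher (adjusted p = 0.0321). The gene wnt7bb was at 0.756 and 0.171 CPM in embryonic basal cells, near the floor, and at 9.64 CPM in the adult library (adjusted p = 0.0177). Its periderm levels of 7.66 and 6.99 CPM lay nearer to the adult level than to the embryonic basal ones. The gene wnt9b reached 172 CPM in the adult library, above 84.1 and 30.3 CPM in embryonic basal cells, but this did not pass the test (log2 change 1.59, adjusted p = 0.212).

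A pair of ligand genes was lower in the adult library. The gene wnt11r fell from 458 and 294 CPM in embryonic basal cells to 29.8 CPM, 12.6-fold (log2 change -3.65, SE 0.60, adjusted p = 0.00552), and the adult value lay below the periderm values too. The gene wnt16, known in fish for its part in blood stem cell specification, was at 14.6 and 7.54 CPM in embryonic basal cells and had 0 adult counts, at least 8.02-fold lower when 3 counts are taken as its limit (adjusted p = 0.0363). The carrier gene wls was at 394 CPM in the adult library, between the periderm and embryonic basal levels, and was not called (log2 change -1.14, adjusted p = 0.15). With total counts and no factor its log2 change was -1.91, and it was called lower in the adult library. By TPM its adult level of 106.4 lay within the periderm values of 105.5 and 126.9.

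**Figure D3:**
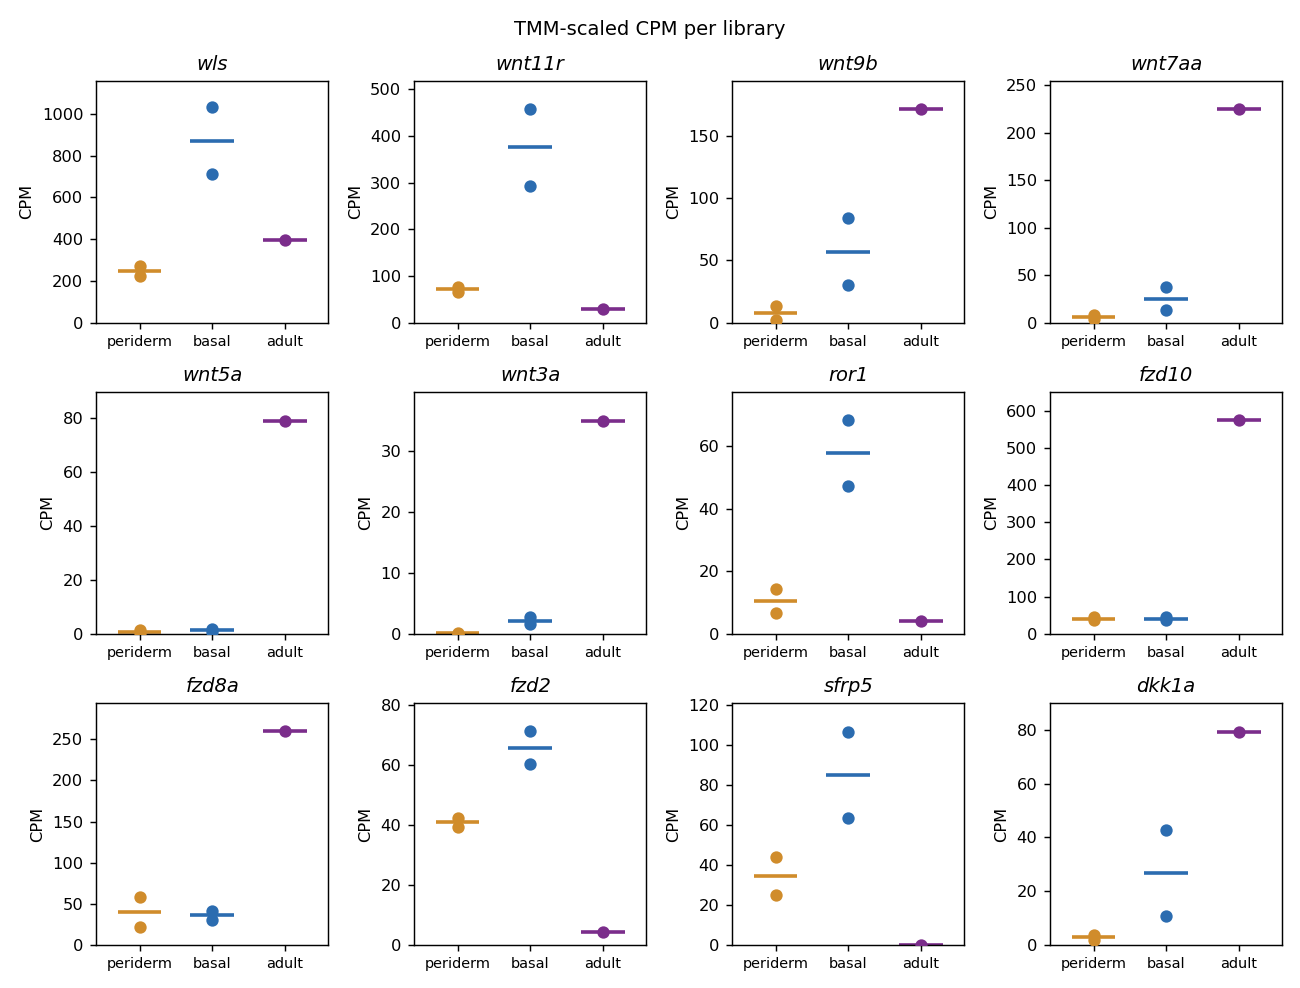
CPM in each library (points) for 12 genes, with the group mean (line), on linear axes from 0. The genes wls, wnt11r and ror1 peak in the embryonic basal libraries, wnt5a, wnt3a, fzd10 and fzd8a stand apart in the single adult library, and sfrp5 is at 0 there.

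Levels of different ligands were compared within a library by TPM. By this measure wnt11r was the leading ligand in all 4 embryonic libraries, with 55.4% and 40% of the summed ligand TPM in periderm and 60.3% and 67.3% in embryonic basal cells. In the adult library it made up 3.11%. There wnt7aa came first with 47.5%, followed by wnt9b with 19.5%, wnt5a with 13.3% and wnt3 with 4.94%. The row of wnt7aa was 1050 bases long and that of wnt11r 2133 bases, and a row shorter than the true transcript raises its TPM. The summed ligand level in CPM was 138 and 168 in periderm, 704 and 422 in embryonic basal cells and 677 in adult cells. The adult sum thus lay between those of the embryonic basal libraries, while its leading genes were different ones.

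**Figure D4:**
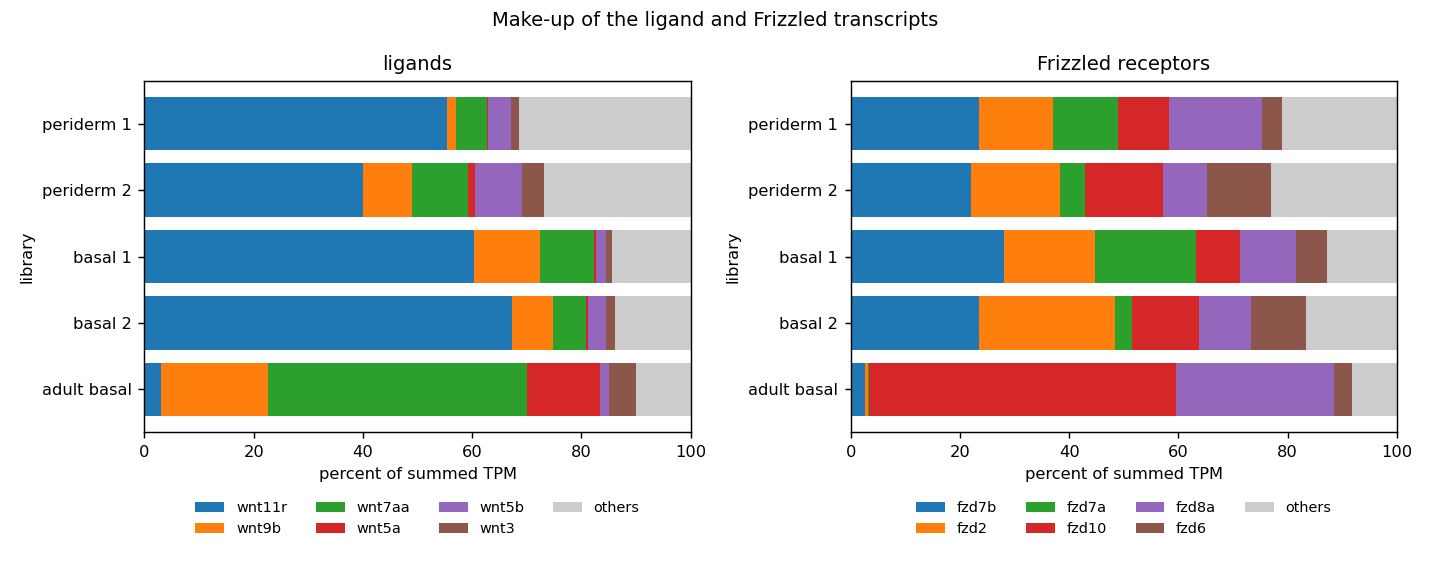
Share of the summed TPM of ligand genes (left) and Frizzled genes (right) taken by single genes in each library, in percent. Gene wnt11r fills 40% or more of the ligand bar in each embryonic library and 3.11% in the adult one, where wnt7aa and wnt9b lead, and fzd10 and fzd8a fill most of the adult Frizzled bar.

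Among the 14 Frizzled receptors, 3 were higher, 3 lower and 8 not called in the adult library. The called share was 42.9%, against 23.1% of all genes, which also went both ways (11.6% higher and 11.4% lower). The gene fzd10, whose product belongs to the same subgroup of receptors as Fzd4 and Fzd9, was at 36.3 and 44.2 CPM in embryonic basal cells and at 576 CPM in the adult library. This was 14.3-fold higher (log2 change 3.84, SE 0.44, adjusted p = 0.00183). The gene fzd8a was at 41.6 and 30.5 CPM in embryonic basal cells and at 260 CPM in the adult library, 7.22-fold higher (adjusted p = 0.0141). The gene fzd1 was at 8.88 and 11.3 CPM and then 35.8 CPM, 3.54-fold higher (adjusted p = 0.0433). For all 3 genes the adult value exceeded every embryonic value, an order that was not counted over all genes.

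The gene fzd2, which can receive ligands of the polarity branch, was at 60.3 and 71.1 CPM in embryonic basal cells and at 4.13 CPM in the adult library, 15.8-fold lower (log2 change -3.98, SE 0.64, adjusted p = 0.0054). The gene fzd4 was at 22.7 and 19.7 CPM and then 3.21 CPM, 6.55-fold lower (adjusted p = 0.035). The gene fzd7b was at 123 and 81.6 CPM and then 26.2 CPM, 3.9-fold lower (adjusted p = 0.0386). By TPM, fzd7b or fzd2 led the Frizzled genes in each embryonic library, fzd7b with 22.1% to 28%. In the adult library fzd10 made up 56.2% and fzd8a 29.1%. The receptor gene ror1 was at 68.4 and 47.3 CPM in embryonic basal cells and at 4.13 CPM in the adult library, 13.9-fold lower (log2 change -3.80, SE 0.81, adjusted p = 0.0148). The co-receptor genes were not called, with lrp5 at 12.9 and 17.1 CPM and then 17.4 CPM, and lrp6 at 0.756 and 6.17 CPM and then 8.72 CPM.

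Of the 11 tested secreted antagonists, 4 were lower and 2 higher in the adult library. The called share was 54.5%, against 23.1% of all genes. The gene sfrp5 was at 107 and 63.6 CPM in embryonic basal cells and had 0 adult counts, at least 61.8-fold lower (adjusted p = 0.00318). The gene sfrp2, of the same family of decoy receptors, was at 13.8 and 12.5 CPM and also had 0 adult counts, at least 9.55-fold lower (adjusted p = 0.0133). The gene wif1, encoding a secreted inhibitor that binds Wnt proteins directly, was at 50.8 and 33.6 CPM and then 5.05 CPM, 8.32-fold lower (adjusted p = 0.0254). The gene notum1a was at 16.8 and 15.4 CPM and had 3 adult counts, a ratio of 11.7 with a 95% Poisson interval of 4.01 to 56.8 (adjusted p = 0.0329).

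Another family member, sfrp1a, went the other way, from 8.31 and 12.5 CPM in embryonic basal cells to 53.2 CPM in the adult library, 5.1-fold higher (adjusted p = 0.0175). The gene dkk3b, a divergent member of the Dickkopf family, was at 0.567 and 1.88 CPM and then 12.4 CPM, 9.78-fold higher (adjusted p = 0.0402). This call held in only 3 of 10 alternatives. It was lost with total counts, no filter, DESeq2, the older fit, summed rows and without either embryonic basal library. The gene dkk1a was at 42.9 and 10.8 CPM in embryonic basal cells and at 79.4 CPM in the adult library, which did not pass the test (log2 change 1.57, adjusted p = 0.173). By TPM, sfrp5 was the first of the antagonists in all 4 embryonic libraries, with 22.4% to 32.8% of their sum, whereas dkk1a with 48.9% and sfrp1a with 27.6% led in the adult library. The R-spondins, which enhance Wnt signals by sparing Frizzled receptors from turnover, were low everywhere, with rspo3 at 8.12 CPM or less and rspo2 at 4.91 CPM or less.

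Of the 11 tested Dishevelled, Axin and TCF/LEF genes, which act inside the cell, dvl3 and tcf7l2 were called, both higher in the adult library. Their share was near the 23.1% over all genes. Of the 5 Dishevelled genes, which link Frizzled receptors to both branches, the table's dvl3, which is RefSeq's dvl3b, rose from 2.27 and 2.74 CPM to 30.3 CPM, 12-fold (adjusted p = 0.0102). Its relative dvl3a was at 59.3 and 66.1 CPM in embryonic basal cells and at 28.5 CPM in the adult library and was not called. The scaffold gene axin1 was at 65.2 and 67.8 CPM and then 21.1 CPM, just outside the threshold (log2 change -1.65, adjusted p = 0.0513). The feedback gene axin2 was at 45.9 CPM in the adult library, against 56.1 and 94.9 CPM in embryonic basal cells (log2 change -0.72, adjusted p = 0.348). Of the transcription factors, tcf7l2 was at 1.32 and 3.60 CPM and then 18.8 CPM, 7.5-fold higher (adjusted p = 0.0376). The factor gene tcf7l1a, known mainly as a repressor, was at 135 and 91.3 CPM and then 98.7 CPM, within the embryonic basal range.

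**Figure D5:**
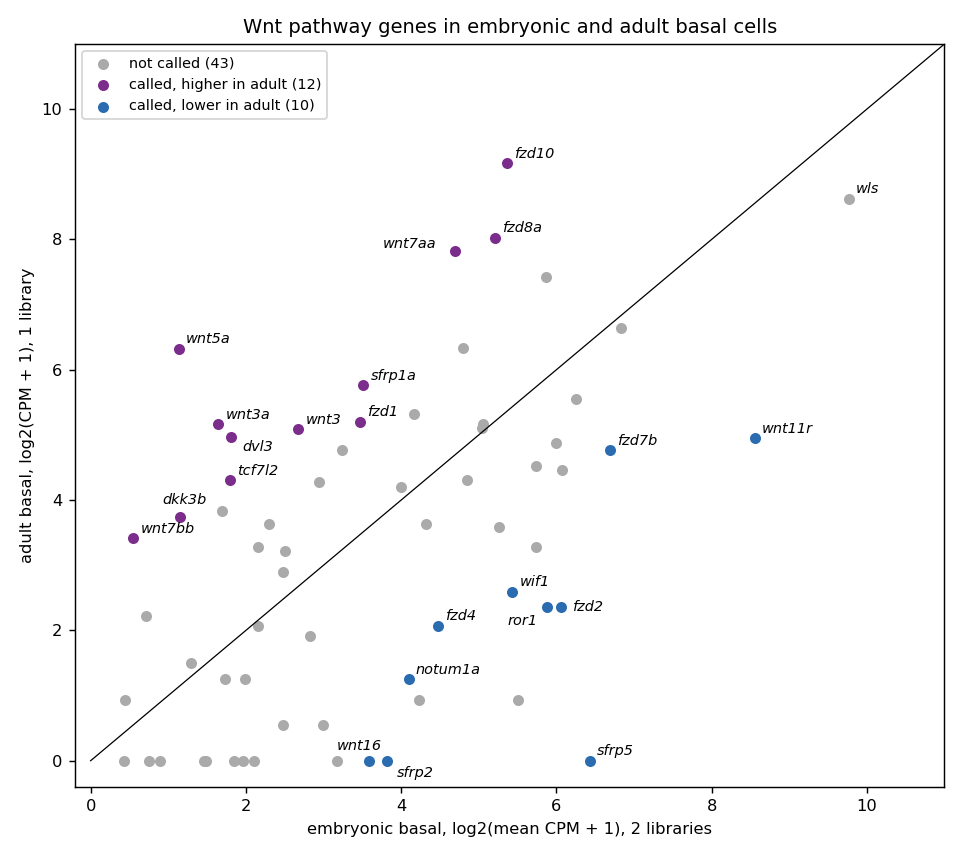
Level in embryonic basal cells (mean of 2 libraries, x axis) against level in adult basal cells (1 library, y axis), both as log2(CPM + 1), for the 65 tested genes; the line marks equal levels. The 12 purple points were called higher in the adult library and the 10 blue points lower, with fzd10, fzd8a and wnt7aa highest among the first and sfrp5, sfrp2 and wnt16 at 0 among the second.

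The balance between higher and lower genes moved with the scaling. The TMM factor was 0.62 in the adult library and 0.96 to 1.19 in the others. The median log2 change over the 65 genes was -0.73 and that over all 18147 genes was -0.59. With total counts and no factor, the all-gene median moved by -0.78, and 7 members were then called higher and 19 lower in place of 12 and 10. In that setting wnt3, fzd1, dkk3b, sfrp1a and tcf7l2 lost their calls. The calls of fzd1, dkk3b and tcf7l2 were also lost with no filter and with summed transcript rows. With summed rows those of wnt3, fzd4, fzd7b and notum1a were lost too, and that of fzd7b also with RLE scaling. Single libraries decided some calls as well. Without embryonic basal replicate 1, 13 members were called, and the adjusted p rose to 0.116 for wnt16, 0.0688 for wnt3, 0.144 for fzd1, 0.0807 for fzd4 and 0.0963 for fzd7b. In the same fit it was 0.157 for dkk3b, 0.0728 for notum1a, 0.0683 for sfrp1a, 0.0578 for wif1 and 0.12 for tcf7l2. Without embryonic basal replicate 2 the calls of wnt7bb (adjusted p = 0.0629), fzd1 (0.0731) and dkk3b (0.0518) were lost. Markers of other cell types differed as well. Of the 11 tested mesenchyme genes, 8 were lower in the adult library, of the 8 fin fold genes 5 were higher (sp8a, sp8b, sp9, msx2b and fgf24), and of the 8 leukocyte genes 4 were higher. Their part in the Wnt gene differences was not tested.

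The last comparison set the adult library against embryonic periderm. It shares the adult library with the second comparison, so the calls of the 2 comparisons are not independent. Here 15 of 65 tested genes were called, 12 higher and 3 lower in the adult library, which is 23.1% of the members against 28.6% of all 18147 genes (14.2% higher and 14.4% lower). Of the 15 calls, 13 held in every alternative that tested them, which was 10 of the 11 alternatives for wnt3a, wnt5a and dvl3. The exceptions were sfrp1a and dkk3b. The gene sfrp1a had adjusted p-values of 0.0613 and 0.068 without periderm replicate 1 or 2 and 0.156 with total counts. The gene dkk3b was called in 2 of 10 alternatives. It had 0.113 and 0.0889 without these libraries, 0.0599 without embryonic basal replicate 1, 0.125 with total counts and between 0.0604 and 0.0749 with no filter, the older fit, summed rows or DESeq2.

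Ligand genes made up 6 of the 12 higher calls. These are 30% of the 20 tested ligand genes, against 14.2% of all genes called higher and 28.6% called in either direction. The gene wnt7aa was at 3.83 and 8.35 CPM in periderm against 224 CPM in the adult library, 35.9-fold higher (adjusted p = 0.00262). The gene wnt9b was at 2.19 and 13.7 CPM in periderm against 172 CPM, 20.9-fold higher (adjusted p = 0.0104), and wnt10a at 1.09 and 0.451 CPM against 18.4 CPM, 24.9-fold higher (adjusted p = 0.00615). For wnt7aa, wnt9b and wnt10a the embryonic basal values lay between those of periderm and of the adult library.

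The gene wnt3a had 1 count in the periderm libraries together, and its ratio to them was 500 with a 95% Poisson interval of 89.8 to 19770. The gene wnt5a was at 0.182 and 1.35 CPM in periderm, 89-fold below its adult level (adjusted p = 0.00167). It passed the filter only through the adult library here too, so this call adds nothing to its values. The gene wnt3 was 10.5-fold higher in the adult library (adjusted p = 0.0114). The receptor genes fzd10 (14.2-fold, adjusted p = 0.00148) and fzd8a (6.51-fold, adjusted p = 0.0137) were higher and fzd2 9.82-fold lower (adjusted p = 0.00821). Among the antagonists dkk1a was 27.7-fold higher than in periderm (adjusted p = 0.00589), and sfrp5 and sfrp2, with 0 adult counts, were at least 25.1-fold and 15.4-fold lower (adjusted p = 0.00498 and 0.00648).

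The genes that led the embryonic comparison were not called here. The gene wnt11r was at 29.8 CPM in the adult library against 77.2 and 66.4 CPM in periderm (log2 change -1.27, adjusted p = 0.108), ror1 at 4.13 CPM against 6.75 and 14.3 CPM (log2 change -1.37, adjusted p = 0.225), and wls at 394 CPM against 225 and 273 CPM (log2 change 0.66, adjusted p = 0.323). With total counts and no factor the direction of wls turned, to -0.27. In that setting the log2 changes of wnt11r and ror1 were -2.20 and -2.30, and both genes were called lower in the adult library. The levels of wnt11r and ror1 were thus highest in the embryonic basal libraries, and in both genes the periderm values stood above the adult value. The order of periderm and adult cells is not resolved for either gene, since its call depended on the scaling.

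Several of the ligand genes lie next to each other in the zebrafish genome. In the gene order of the assembly GRCz12tu, used for neighbours alone, wnt6b is followed by wnt10a, wnt3a by wnt9a, wnt10b by wnt1 and wnt8a by wnt8-2. The neighbours wnt6b and wnt10a had the same order of groups. The gene wnt6b was at 0.182 CPM, below the floor, and 1.35 CPM in periderm. It was at 4.16 and 5.14 CPM in embryonic basal cells and 8.26 CPM in the adult library. In the order of the 3 comparisons above its adjusted p was 0.191, 0.549 and 0.0538, so it was not called in any. The neighbours wnt3a and wnt9a did not, since wnt9a was at 1.38 CPM in the adult library, on the floor of 3 counts, where wnt3a was at 34.9 CPM. For wnt10b and wnt1 the group means shared an order, at 2.00 and 2.19 CPM in periderm and 1.76 and 0.343 CPM in embryonic basal cells. Neither had an adult count or was called, and the embryonic groups of wnt10b overlapped. How often genes that are not neighbours share an order was not counted.

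Other genes of the pathway, 80 of 87 listed entries found in the table, were read beside the Wnt pathway genes. Between the embryonic groups 71 of them were tested and 3 called. This is 4.23%, near the 3.50% over all genes. The inhibitor genes apcdd1l (log2 change 2.16, adjusted p = 0.0461) and trabd2b (log2 change 2.76, adjusted p = 0.0395) were higher in basal cells, and ta, the Brachyury gene of the notochord and tail, lower (log2 change -3.42, adjusted p = 0.0328). Without periderm replicate 1 or embryonic basal replicate 1 all 3 calls were lost. With summed transcript rows they were lost too (adjusted p = 0.0652 for apcdd1l, 0.0683 for trabd2b and 0.0689 for ta). The calls of apcdd1l and trabd2b were also lost without periderm replicate 2 and with the older fit (adjusted p = 0.0606 and 0.0521). That of apcdd1l was lost with no filter as well (adjusted p = 0.055). None of 15 tested genes of the destruction complex and beta-catenin, 9 of receptor turnover, 12 nuclear partners or 15 planar polarity genes was called. At the all-gene share of 3.50%, few calls are due in lists of these sizes.

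Between adult and embryonic basal cells, 77 of these genes were tested, with 10 higher and 9 lower, which is 24.7% against the 23.1% over all genes. In receptor turnover, 2 of 9 tested genes were higher and none lower. They were rnf43, encoding a ligase that removes Frizzled proteins from the surface, at 4.53 and 2.40 CPM in embryonic basal cells and 41.8 CPM in the adult library (12.1-fold, adjusted p = 0.0094), and lgr6, encoding an R-spondin receptor that marks stem cells in mouse skin, at 4.34 and 2.40 CPM and then 73.4 CPM (21.8-fold, adjusted p = 0.00351). Of 13 tested nuclear partners, 6 were lower and none higher, among them the co-repressor gene tle2 (22.6-fold, adjusted p = 0.00456) and the beta-catenin co-factor gene pygo2 (11.7-fold, adjusted p = 0.0139). Without embryonic basal replicate 1 the calls of ctbp1, hic1 and ctnnbip1 were lost. With summed transcript rows they were lost too (adjusted p = 0.0528, 0.0647 and 0.0564). The call of hic1 was also lost without embryonic basal replicate 2. That of ctnnbip1 was also lost without periderm replicate 1 and with RLE scaling (adjusted p = 0.0578). The calls of tle2, pygo2 and ctbp2a held in every alternative run.

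Of 14 tested feedback targets, which also respond to other pathways, 4 were higher and 1 lower in the adult library. The called share was 35.7%, against 23.1% of all genes. The gene mycb went from 69.7 and 36.2 CPM to 372 CPM (7.03-fold, adjusted p = 0.00947), and jag1b, a Notch ligand gene, from 52.0 and 44.9 CPM to 380 CPM (7.85-fold, adjusted p = 0.00425). The surface receptor gene cd44a had no embryonic count and was at 1202 CPM in the adult library, at least 2224-fold higher. It passed the filter only through the adult library, so its call adds nothing to these values. Leukocytes also express cd44. The leukocyte gene sum was 3235 CPM in the adult library, nearly all of it from cd74a. In periderm, where cd44a had no count, the sum was 139 and 217 CPM. The part of leukocytes in this difference was not tested. The Dishevelled-binding inhibitor gene nkd1 was the one that was lower, from 53.7 and 72.6 CPM to 0 counts, at least 45.9-fold (adjusted p = 0.00341). In planar polarity, celsr1a (3.47-fold, adjusted p = 0.0346) and daam1a (10.3-fold, adjusted p = 0.00688) were higher among 17 tested genes. Of 16 tested genes of the destruction complex and beta-catenin, 2 were higher and none lower, and of 8 other secreted inhibitors 2 were lower, trabd2b (0 adult counts, at least 37.3-fold, adjusted p = 0.00608) and sostdc1a (0 adult counts, at least 8.01-fold, adjusted p = 0.0407). The calls of celsr1a and sostdc1a were lost without embryonic basal replicate 1. That of celsr1a was also lost with total counts and with no filter, and that of sostdc1a with summed rows. Against periderm, 18 of the 77 genes were higher and 10 lower in the adult library, 36.4% against the 28.6% over all genes.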

How the data were processed

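RNA of 5 sorted zebrafish libraries was compared, grouped by the sample titles. The authors deposited raw counts, whole numbers without normalization, for each transcript row. The submitters' processing notes name GRCz11 as the build, with featureCounts 2.0.3 and HISAT2 2.2.1 as tools. RPKM values, deposited by the authors in the same table, served only to recover library totals, within 0.26% of the summed counts. TPM values deposited by the authors ranked genes within a library. Neither strand use nor the handling of multimapped reads is given in the sources used here, so reads of gene copies or antisense partners may be shared. The table has 75805 rows, and 133 rows belong to the 76 genes; 35 genes had several rows, 23 of them in several places. Of 57 symbols turned into dates, 46 were matched by accession. No row had a blank name. Names and gene order came from a RefSeq table of GRCz12tu.

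Row totals ranged from 5580007 to 12975986. Tests used edgeR 4.0.16 in R 4.3.3 (filterByExpr by group, TMM, glmQLFit, glmQLFTest, Benjamini-Hochberg adjustment over all tested genes, threshold 0.05) without a replicate block. The embryonic comparison used 4 libraries, and the adult comparisons all 5. Adjusted p-values are from edgeR unless DESeq2 is named. SE is the absolute log2 change divided by the square root of F. A fold against 0 counts is a bound against 3 counts per library; with 1 to 3 counts it is a ratio with a 95% Poisson interval; both cover counting error only. The code was tested on simulated counts with 200 changed genes.

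Genes were named when called in any comparison, when given with the set (wls, wnt5a and fzd10) or when among the 3 with the highest mean CPM of their role. From the other pathway lists, called genes were named up to 4 per list and direction; a few were left out for length. The members and lists were chosen with earlier results of these data known. The genes wnt2, wnt4b and dkk3a, the neighbours wnt6b, wnt9a, wnt10b and wnt1, and the table's wnt11 were named after their values were seen. So were the genes named for their shared or missing rows. Alternatives were RLE scaling, total counts, no filter, a filter of 5 CPM in 2 libraries, DESeq2 1.42.0, the older quasi-likelihood fit, summed transcript rows, leaving out each embryonic library and, for the embryonic comparison only, a fit on 5 libraries and the replicate block.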

Additional observations from a re-analysis of the deposited data

How the results depend on the processing

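The embryonic comparison depended most on the processing. In place of 3 called members, RLE scaling gave 5 (4 higher, 1 lower), total counts 6 (5 higher, 1 lower), DESeq2 9 (8 higher, 1 lower), the older quasi-likelihood fit 1 and summed transcript rows 1. Leaving out 1 library gave 0 to 7 called members. The count was 0 without either periderm library or without embryonic basal replicate 1, where edgeR still had 12, 11 and 10 members higher and 2, 2 and 1 lower at an unadjusted p under 0.05 (over all genes 5.42%, 7.76% and 4.31% higher and 7.76%, 8.84% and 6.88% lower), and 7 without embryonic basal replicate 2. Of the 13 alternatives, wnt11r was called in 10, wls in 7 and ror1 in 5. With the replicate block 2 members were called, ror1 being lost (adjusted p = 0.0571). Same-numbered libraries correlated by 0.169 in their deviations from the group means over 18147 genes, but with 2 pairs the libraries share only a number. Over all genes the count of calls ran from 73 without periderm replicate 1 to 1396 with DESeq2, against 545.

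Between adult and embryonic basal cells the 22 calls became 13 to 24 when 1 library was left out, 13 of them without embryonic basal replicate 1 (8 higher, 5 lower), and 26 with total counts (7 higher, 19 lower). Against periderm the 15 calls became 25 with total counts (10 higher, 15 lower) and 13 to 18 when 1 library was left out. There the direction turned for wls, to -0.27, and for wnt7bb, to -0.54, from 0.66 and 0.40. Total counts moved the all-gene median by -0.93 there, so these turns follow from the scaling itself. No called member changed direction in any alternative. The cause of the other differences was not tested. No adult library could be left out, since there is 1. The adult floor of 1.38 CPM limits what can be said of the 23 members without an adult count.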
